A study of Rattus norvegicus with 9 samples.

Results

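The genes of 10 glycolytic enzymes were followed in RNA sequencing data from rat lumbar spinal cord: Hk1 and Hk2 (hexokinases), Pfkm and Pfkp (phosphofructokinases), Aldoa and Aldoc (aldolases), Pgk1 (phosphoglycerate kinase), Eno1 (enolase), and Ldha and Ldhb (lactate dehydrogenases). They were chosen by gene name, and all 10 were found, each at 1 of the 34890 loci listed. Male wild-type Sprague Dawley rats fell into 3 groups of 3 samples. The JA group had a sham operation and was given saline. In the SNI group (spared nerve injury, a model of neuropathic pain) the common peroneal and tibial nerves had been ligated and cut while the sural nerve was spared, and saline was given. The PLM group had the same injury and received by mouth the middle dose of the plant compounds paeoniflorin (20.65 mg/ml) and liquiritin. For liquiritin the sample labels differ, with 3.98 mg/ml in PLM replicate 1, 3.99 in replicate 2 and 3.100 in replicate 3, whereas the methods describe a single dose for the whole group, that of replicate 1. Solution or saline was given for 21 days, and RNA came from the L3-L6 cord, by the study's methods from the injured side. No uninjured group received the compounds, so their effect without the injury cannot be told from these samples.

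Glycolysis turns glucose into pyruvate in the cytosol. Hexokinase traps glucose as glucose 6-phosphate, phosphofructokinase commits it to the pathway, aldolase splits the hexose, phosphoglycerate kinase yields ATP, enolase makes phosphoenolpyruvate, and lactate dehydrogenase interconverts pyruvate and lactate. Most steps have several isoenzymes encoded by separate genes. Aldoc encodes the brain form of aldolase and is a widely used astrocyte marker, whereas Aldoa is made in nearly every cell. Hk1 is the main hexokinase of nervous tissue and Hk2 an insulin- and hypoxia-responsive form, and Ldhb and Ldha encode the heart and muscle subunits of lactate dehydrogenase. Astrocytes are known as glycolytic cells that release lactate.

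Values are TPM, that is transcripts counted per length of the gene and expressed so that every sample adds up to 1000000, so levels may be compared between genes. They keep no read depth, and counting error is therefore unknown. Sums of marker genes differed between samples of a group. Astrocyte markers summed to 2043, 1727 and 962.5 TPM in the JA samples, 2000, 2069 and 1699 in SNI, and 814.9, 739.3 and 684.4 in PLM. None of the 15 astrocyte genes was at 0 throughout, and neuron, oligodendrocyte and microglia markers were also present in every group. JA replicate 3 stood apart, with 7576 TPM of Schwann cell markers against 679.9 and 124.3 in the other JA samples, and 6564 TPM of blood cell markers against 3126 and 2863. Schwann cell markers also ranged from 552.1 to 4366 TPM in SNI and from 268.6 to 3215 in PLM. SNI replicate 1 held 152.2 TPM of skeletal muscle markers, against 15.67 to 31.21 elsewhere. In whole tissue, fewer cells of a type and less RNA per cell cannot be told apart.

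Promoter sequence was at hand for 9 of the 10 genes in the RefSeq promoter table of the rat assembly GRCr8, as 13 entries. The 250 bases before the start site were searched on both strands for ACGTG and GCGTG, the core letters of the hypoxia response element through which HIF-1 acts on many glycolytic genes. Of the 33469 promoters in that table, 36.7% hold at least 1 such match, and of the 13 entries 9 do, from 8 of the 9 genes (not Hk2). The 36.7% is a share of entries and is not comparable with the share of genes. Both motifs contain CG. The GC content of the 13 entries ran from 47.6 to 70%, beside a median of 51.2% over all promoters, and its part in the matches was not tested. These matches are a description of letters and not of binding. Shown here are the 4 genes whose median-centred SNI and PLM values did not overlap with PLM lower, and Ldha for contrast, each 5′ to 3′ on the gene's strand with the matched letters in capitals. All 5 lie on the plus strand. Aldoc is at chr10:63715294-63715543, Pfkm at chr7:131113849-131114098, Pfkp at chr17:68639563-68639812, Eno1 (the first of 2 entries) at chr5:166002617-166002866 and Ldha at chr1:106507842-106508091.
Aldoc: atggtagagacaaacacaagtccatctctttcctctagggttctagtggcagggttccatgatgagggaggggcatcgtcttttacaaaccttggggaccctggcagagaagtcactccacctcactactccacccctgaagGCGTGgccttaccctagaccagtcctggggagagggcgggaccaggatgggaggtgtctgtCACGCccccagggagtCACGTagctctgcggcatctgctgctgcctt
Pfkm: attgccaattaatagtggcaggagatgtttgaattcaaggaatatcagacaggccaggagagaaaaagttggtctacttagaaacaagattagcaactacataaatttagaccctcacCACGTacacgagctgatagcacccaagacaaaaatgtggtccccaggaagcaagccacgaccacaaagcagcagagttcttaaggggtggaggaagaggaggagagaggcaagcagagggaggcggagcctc
Pfkp: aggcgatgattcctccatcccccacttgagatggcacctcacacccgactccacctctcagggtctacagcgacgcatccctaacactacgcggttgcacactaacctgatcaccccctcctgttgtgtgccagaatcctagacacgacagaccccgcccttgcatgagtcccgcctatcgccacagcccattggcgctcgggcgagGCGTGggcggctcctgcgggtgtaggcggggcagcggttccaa
Eno1: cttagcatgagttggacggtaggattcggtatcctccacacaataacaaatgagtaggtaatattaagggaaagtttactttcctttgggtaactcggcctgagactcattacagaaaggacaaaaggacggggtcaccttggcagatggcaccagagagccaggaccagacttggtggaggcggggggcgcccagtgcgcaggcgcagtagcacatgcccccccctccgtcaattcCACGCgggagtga
Ldha: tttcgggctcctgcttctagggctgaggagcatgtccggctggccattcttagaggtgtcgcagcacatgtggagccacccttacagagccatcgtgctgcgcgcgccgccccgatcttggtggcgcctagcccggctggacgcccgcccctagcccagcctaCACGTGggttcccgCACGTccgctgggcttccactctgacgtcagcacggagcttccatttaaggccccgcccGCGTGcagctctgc
The Aldoc window holds 3 matches, 1 on the printed strand and 2 on the other. The Ldha window holds 4, of which 2 overlap in the palindrome CACGTG. The Pfkm, Pfkp and Eno1 windows hold 1 each.

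In level, the 10 genes spanned a wide range. Aldoc was the highest, with a mean of 1586 TPM over the 9 samples, followed by Aldoa at 1126, Ldhb at 798.7, Eno1 at 501.3, Pgk1 at 310.4 and Pfkm at 161.9. Ldha (81.82 TPM), Pfkp (80.55) and Hk1 (71.28) lay close together and their ranges over samples overlapped. Hk2 was far below all others at 3.428 TPM, with a range of 2.82 to 3.89. The ranges of Aldoc and Aldoa overlapped across samples, although Aldoc exceeded Aldoa within each of the 9, and those of Eno1 and Pgk1 also overlapped. The remaining neighbours in the order did not overlap: Aldoa with Ldhb, Ldhb with Eno1, Pgk1 with Pfkm, Pfkm with Ldha, and Hk1 with Hk2. Aldoa, Eno1, Pgk1 and Ldha have processed pseudogene copies in rodent genomes, and how reads shared with such copies were assigned is not given in the sources used here.

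**Figure D1:**
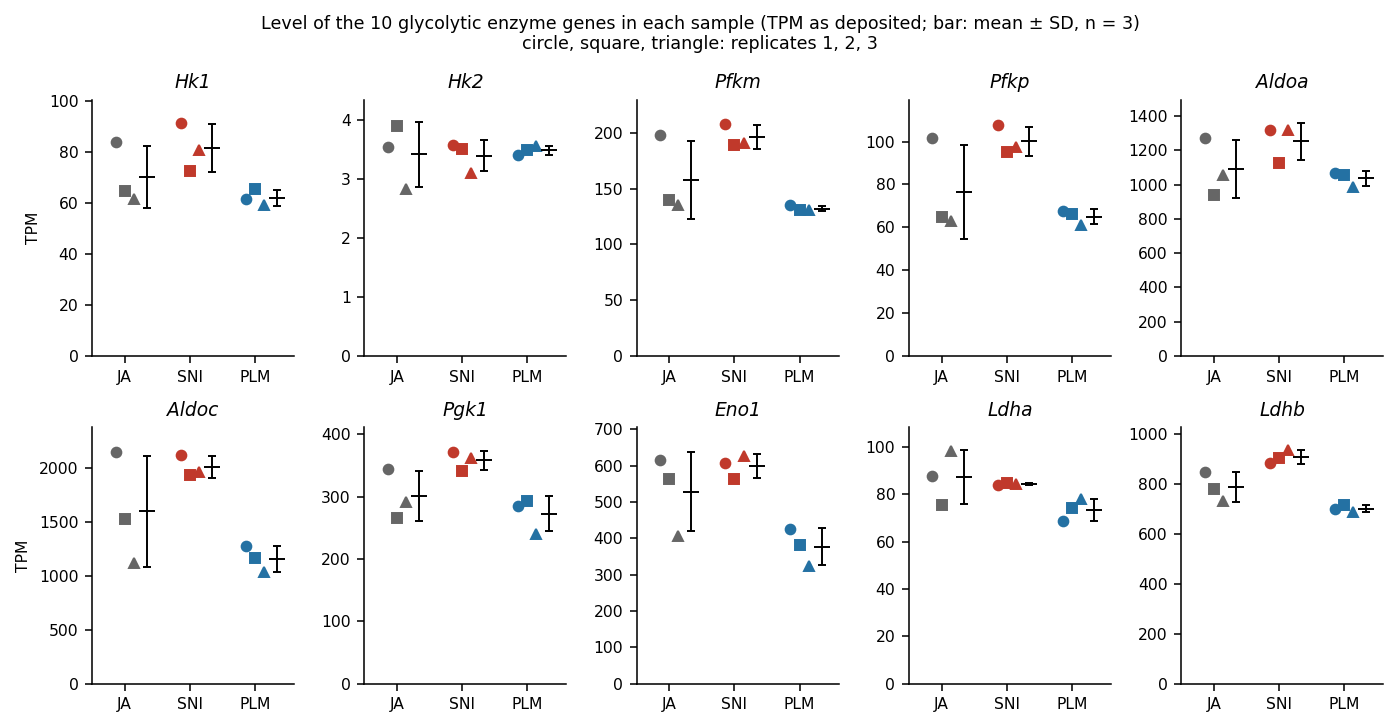
TPM as deposited (vertical axis, from 0) of the 10 enzyme genes in the JA, SNI and PLM samples, with circle, square and triangle for replicates 1, 2 and 3 and bars for the mean ± SD of 3 samples. For Aldoc the PLM samples sit between 1034.71 and 1273.43 TPM and the SNI samples between 1930.24 and 2121.73, while the JA samples spread from 1118.28 to 2141.79.

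The comparison of PLM with SNI addresses what the drug combination changed in injured rats. In the values as deposited, 7 of the 10 genes were lower in PLM (Aldoc, Pfkm, Pfkp, Eno1, Ldhb, Pgk1 and Hk1), and none was higher. Aldoc differed most, with a PLM mean 42.2% below the SNI mean. The background was broad: limma called 2110 of 15474 loci lower (13.6%) and 38 higher (0.246%) at an adjusted p under 0.05 (Benjamini-Hochberg), and the median log2 fold change of all loci was -0.21. The median of the 10 genes was -0.39, and 8 of them were below the median of all loci. Because of that shared shift, each change was also computed after each sample's median was set to a common value (median-centred). On that scale 0 of the 10 genes were called, against 0.685% of loci called lower and 0.129% higher, and 4 lower and 1 higher had an unadjusted p-value under 0.05, against 6.89% and 10% of loci. The calls on deposited values therefore hold for TPM shares and were not made relative to the typical locus.

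At the first step, Hk1 was at 91.36, 72.71 and 80.79 TPM in SNI and 61.5, 65.45 and 59.35 in PLM. All PLM samples were below all SNI samples. Its log2 fold change was -0.38 (SE 0.094, limma adjusted p = 0.0455), and -0.14 (SE 0.094, adjusted p = 0.516) when median-centred. Hk2 was at 3.58, 3.5 and 3.09 TPM in SNI and at 3.41, 3.48 and 3.55 in PLM, so the groups overlapped. The Hk2 log2 fold change was 0.031 (SE 0.097, limma adjusted p = 0.831) as deposited and 0.28 (SE 0.087, adjusted p = 0.196) when median-centred, where PLM lay above SNI without overlap. Hk2 was the only gene of the 10 with a positive log2 fold change on deposited values, and like Aldoa and Ldha it did not pass the test.

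Both phosphofructokinase genes were lower on deposited values. Pfkm, the muscle-type subunit that is also abundant in brain, was at 208.2, 188.88 and 190.97 TPM in SNI and at 134.86, 130.58 and 130.5 in PLM. Pfkp, the platelet-type subunit, was at 107.94, 95.27 and 97.4 TPM in SNI and at 67.63, 66.38 and 61.04 in PLM. Each gene's highest PLM sample was well below its lowest SNI sample. The Pfkm log2 fold change was -0.57 (SE 0.058, limma adjusted p = 0.00661) and the Pfkp one -0.62 (SE 0.073, limma adjusted p = 0.00916). Median-centred, they were -0.32 (SE 0.066, limma adjusted p = 0.0988) and -0.37 (SE 0.084, limma adjusted p = 0.117), still without overlap between the groups.

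The aldolase genes moved by different amounts. Aldoc was at 2121.73, 1930.24 and 1962.36 TPM in SNI (2005 ± 103, SD, n = 3) and at 1273.43, 1165.64 and 1034.71 in PLM (1158 ± 120). Aldoa was at 1315.64, 1128.2 and 1315.23 TPM in SNI (1253 ± 108) and at 1068.07, 1056.34 and 987.51 in PLM (1037 ± 43.5). Neither gene's groups overlapped, with a wide gap for Aldoc and a narrow one for Aldoa. The Aldoc log2 fold change was -0.80 (SE 0.088, limma adjusted p = 0.00786), and -0.55 (SE 0.11, unadjusted p = 0.00252, limma adjusted p = 0.0978) when median-centred. Aldoa did not pass, with a log2 fold change of -0.27 (SE 0.078, limma adjusted p = 0.0638) as deposited and -0.022 (SE 0.096, adjusted p = 0.930) when median-centred.

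Further down the pathway, Pgk1 was at 371.78, 340.7 and 361.16 TPM in SNI and at 285.32, 292.32 and 240.56 in PLM, a log2 fold change of -0.40 (SE 0.087, limma adjusted p = 0.0375). Eno1 was at 608.46, 562.95 and 626.39 TPM in SNI and at 424.6, 382.6 and 322.82 in PLM, a log2 fold change of -0.68 (SE 0.11, limma adjusted p = 0.0192). In both genes the PLM values were all under the SNI values. Median-centred, the values were -0.15 for Pgk1 (SE 0.11, limma adjusted p = 0.536) and -0.43 for Eno1 (SE 0.14, limma adjusted p = 0.198), and only Eno1 of this pair kept its groups apart.

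At the last step, Ldhb was at 882.75, 905.13 and 937.86 TPM in SNI and at 700.33, 717.7 and 686.54 in PLM. Ldha was at 83.93, 84.96 and 84.56 TPM in SNI and at 68.64, 74.1 and 77.94 in PLM. In both genes the SNI values were all above the PLM values. The Ldhb log2 fold change was -0.37 (SE 0.050, limma adjusted p = 0.0133), and -0.13 (SE 0.071, adjusted p = 0.428) when median-centred. For Ldha it was -0.20 (SE 0.063, limma adjusted p = 0.0776), and the sign turned to 0.048 (SE 0.052, adjusted p = 0.690) when median-centred.

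Counted over the 10 genes, 9 had no overlap between the groups with PLM lower on deposited values, against 41.9% of all loci, and none with PLM higher, against 1.59%. When median-centred, 4 genes did so (Aldoc, Pfkp, Eno1 and Pfkm), against 9.73% of loci, and 1 did so with PLM higher (Hk2), against 14.1%. None passed the study's own thresholds (unadjusted p-value under 0.05 and absolute log2 fold change above 1), which 1.42% of loci passed downward and 0.226% upward.

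The calls on deposited values differed in how far they rested on single samples. With each of the 6 samples left out in turn, Aldoc, Pfkm and Pfkp were called in 6 of 6 limma fits, with adjusted p-values of 0.0199 to 0.0404 for Aldoc. Ldhb was called in 4 and lost without PLM replicate 1 (limma adjusted p = 0.0604) or PLM replicate 2 (0.0589). Eno1 was called in 3 and lost without SNI replicate 1 (limma adjusted p = 0.0706), SNI replicate 3 (0.0571) or PLM replicate 2 (0.0703). Hk1 was called only without SNI replicate 2 (limma adjusted p = 0.0400), and its other values ran up to 0.138. Pgk1 was called in none (limma adjusted p 0.0523 to 0.109), whereas Aldoa was called without SNI replicate 2 (0.0387). The number of the 10 genes called was 4 without SNI replicate 1 (1.86% of all loci called lower in that fit), SNI replicate 3 (3.81%) or PLM replicate 1 (1.96%), 3 without PLM replicate 2 (1.71%), 5 without PLM replicate 3 (4.44%) and 7 without SNI replicate 2 (9.46%). The calls over all loci thus fell from 2110 with all 6 samples to between 264 and 1456. Median-centred, 0 of the 10 were called in each of the 6 fits, beside 0 to 0.463% of loci. After quantile normalization 3 were called (Aldoc, Pfkm and Ldhb, beside 0.853% of loci), and in a limma fit over all 9 samples, in which the wide JA spread enters, 1 (Ldhb, adjusted p = 0.0413, beside 2.99% of loci), with Aldoc at an adjusted p of 0.0577.

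The shared shift went with a larger mitochondrial share. The 13 mitochondrial protein genes took 23.65, 26.09 and 24.08% of TPM in SNI and 32.79, 31.27 and 31.86% in PLM. In JA they took 25.32, 32.82 and 29.29%, so that JA replicate 1 lay within the SNI range and JA replicate 2 above every PLM sample. The median TPM over expressed loci (mean of 1 or more) was 10.31 ± 0.243 in SNI, 8.513 ± 0.407 in PLM and 9.39 ± 0.598 in JA. With TPM rescaled without these 13 genes, limma called 3 of the enzymes lower (Aldoc, log2 fold change -0.65, adjusted p = 0.0274; Pfkm, -0.42, adjusted p = 0.0247; Pfkp, -0.47, adjusted p = 0.0316), beside 1.66% of loci called lower, an all-loci median of -0.084 and a median of -0.24 for the 10 genes.

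**Figure D2:**
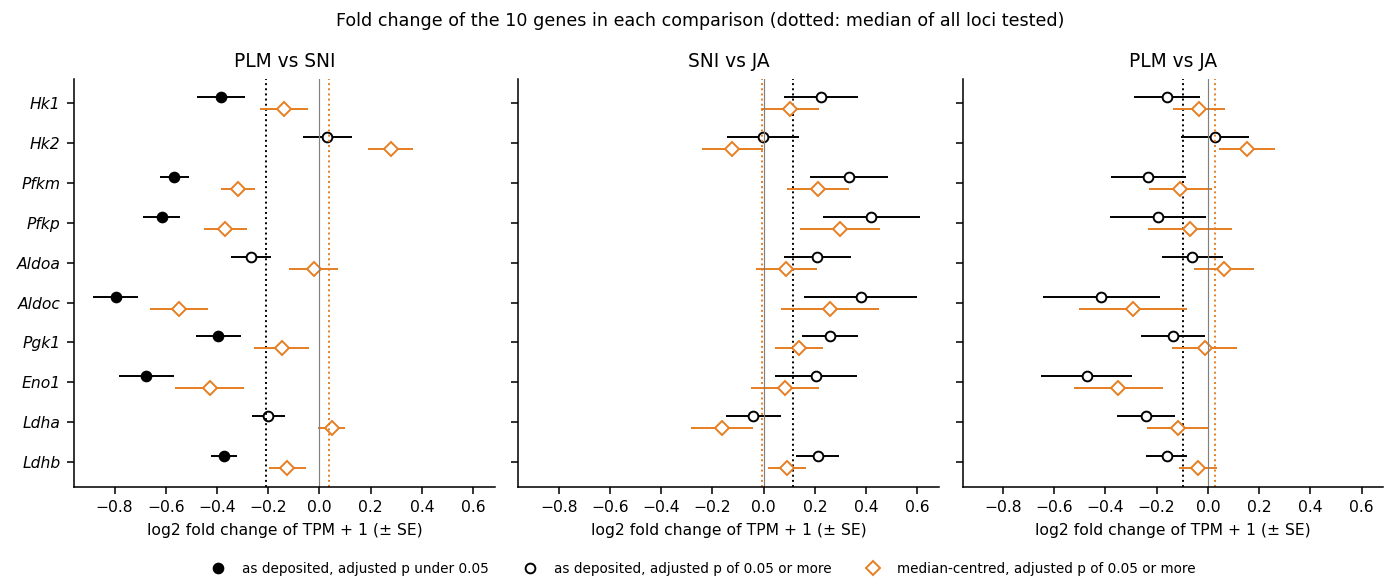
Log2 fold change of TPM + 1 (horizontal axis, ± SE) of the 10 genes in the 3 comparisons, for values as deposited (circles, filled where the limma adjusted p is under 0.05) and median-centred (diamonds), with dotted lines at the median of all loci tested. The 7 filled circles are all in PLM vs SNI, from -0.37 for Ldhb to -0.80 for Aldoc, and every diamond is open.

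Ratios of 2 isoenzyme genes within a sample do not depend on how that sample was scaled. Aldoc/Aldoa was 1.61, 1.71 and 1.49 in SNI and 1.19, 1.1 and 1.05 in PLM, with the PLM values all under the SNI values. The difference of the mean log2 ratios was -0.53 (0.15 ± 0.094 against 0.68 ± 0.099, SD, n = 3; exact two-sided permutation p = 0.10, the smallest that 3 against 3 samples can give, and 0.30 adjusted over the 12 ratio tests). In JA the same ratio was 1.68, 1.62 and 1.06, with replicate 3 at the level of PLM and the other 2 at that of SNI. SNI and JA overlapped (difference 0.17, exact permutation p = 0.70), as did PLM and JA (-0.36, exact permutation p = 0.30). Without JA replicate 3 these differences were -0.044 and -0.57, so the sign of the first turns on that sample.

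Hk2/Hk1 was 0.0392, 0.0481 and 0.0382 in SNI and 0.0554, 0.0532 and 0.0598 in PLM. The ratio was higher in every PLM sample, by 0.43 on the log2 scale (exact permutation p = 0.10, adjusted 0.30). JA, at 0.042, 0.0602 and 0.0458, overlapped both groups. Ldhb/Ldha was 10.5, 10.7 and 11.1 in SNI, 10.2, 9.69 and 8.81 in PLM and 9.66, 10.3 and 7.41 in JA. SNI was thus above both other groups without overlap, by 0.17 over PLM and by 0.25 over JA on the log2 scale (each exact permutation p = 0.10, adjusted 0.30), and without JA replicate 3 the difference from JA was 0.11. Pfkp/Pfkm was nearly constant, from 0.462 to 0.518 over all samples, and PLM and SNI overlapped (log2 difference -0.054, exact permutation p = 0.20). Without PLM replicate 3 the log2 difference of PLM from SNI was -0.017 for Pfkp/Pfkm and -0.11 for Ldhb/Ldha. None of the 12 ratio tests could pass 0.05 in this design.

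**Figure D3:**
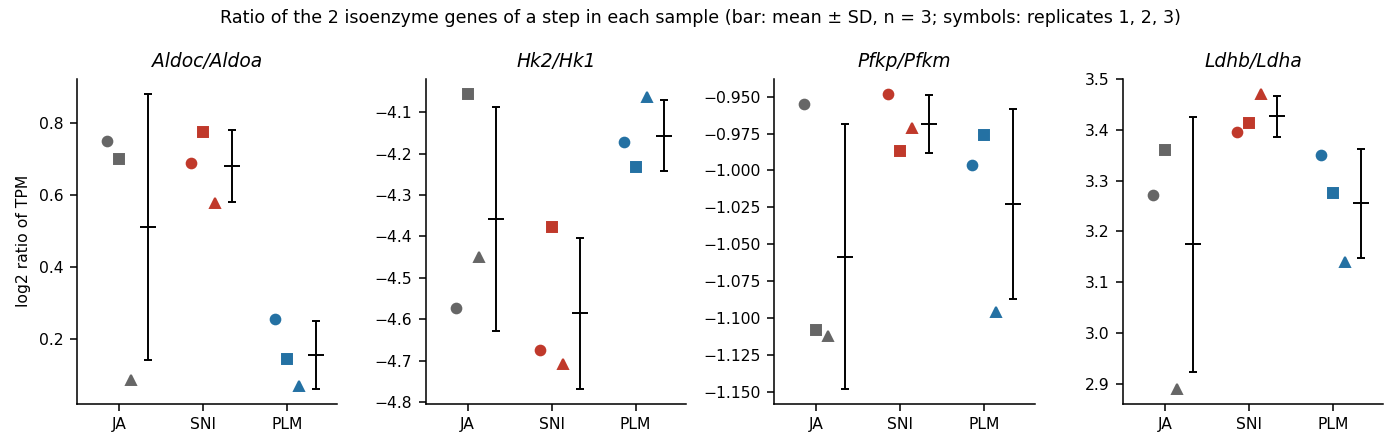
Log2 ratio of TPM of the paired isoenzyme genes (vertical axis, scaled separately in each panel and not starting at 0) in the JA, SNI and PLM samples, with bars for the mean ± SD of 3 samples. Mean log2 Aldoc/Aldoa is 0.68 in SNI and 0.15 in PLM, and the JA samples run from 0.084 to 0.75.

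Together the 10 genes took 5795, 5313 and 5660 TPM in SNI and 4088, 3955 and 3605 in PLM. The PLM sum was lower by a difference of -1706.9 TPM (3882 ± 250 against 5589 ± 249, exact two-sided permutation p = 0.10). Aldoc alone made up 36.61, 36.33 and 34.67% of that sum in SNI and 31.15, 29.48 and 28.71% in PLM (exact permutation p = 0.10). Without Aldoc the sums still did not overlap, at 3584 ± 175 TPM in SNI and 2724 ± 134 in PLM. In JA the 10 genes summed to 5699, 4420 and 3962 TPM, overlapping both SNI (difference of SNI from JA 895.8 TPM, exact permutation p = 0.30) and PLM (-811.2 TPM for PLM from JA, exact permutation p = 0.20). Without JA replicate 1 these differences were 1399 and -308.4 TPM, and without JA replicate 3 they were 529.8 and -1177 TPM. Without Aldoc the JA sums were 3557, 2895 and 2843 TPM, overlapping SNI (exact permutation p = 0.20) and all above PLM (-374.2 TPM, exact permutation p = 0.10). That difference of PLM from JA was -144.9 TPM without JA replicate 1. The Aldoc share in JA was 37.58, 34.49 and 28.23%, overlapping SNI (exact permutation p = 0.60) and PLM (exact permutation p = 0.40). In units of each sample's median TPM the 10 genes summed to 542.3 ± 22.2 in SNI, 457.6 ± 50.1 in PLM and 497.2 ± 63.3 in JA, which overlapped both.

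The comparison of SNI with JA addresses what the injury changed. None of the 10 genes was called, and neither was any of the 15557 loci (background 0% in each direction). At an unadjusted p-value under 0.05 limma gave 1 of the 10 genes, Ldhb, higher, beside 6.11% of loci higher and 0.99% lower, and 0 of the 10 when median-centred, beside 1.7% and 3.13%. Ldhb was at 849.78, 778.18 and 730.22 TPM in JA, below each SNI sample, with a log2 fold change of 0.21 (SE 0.084, limma adjusted p = 0.614). It was the only gene of the 10 without overlap, against 12.1% of loci higher and 1.66% lower in SNI, and when median-centred none was apart (6.87% of loci lower and 4% higher). None passed the study's thresholds (0.193% of loci lower and 0.495% higher). The log2 fold changes of the others ran from -0.040 for Ldha to 0.42 for Pfkp, with a median of 0.22 for the 10 genes and 0.12 for all loci, and of 0.096 and -0.0055 when median-centred. Without JA replicate 1 the deposited medians were 0.34 and 0.16.

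The JA samples themselves varied widely. Aldoc was at 2141.79, 1524.55 and 1118.28 TPM in JA (1595 ± 515), so that JA replicate 1 lay above every SNI sample and JA replicate 3 within the range of PLM. Pfkm (197.57, 139.39 and 135.72 TPM), Pfkp (101.88, 64.65 and 62.77) and Hk1 (84.04, 64.67 and 61.61) showed 1 high JA sample, replicate 1, and 2 near the PLM level. Eno1 was at 614.68, 563.63 and 405.25 TPM, with replicates 1 and 2 near SNI and replicate 3 near PLM. The JA maximum over the JA minimum was 1.92 for Aldoc, against 1.10 within SNI and 1.23 within PLM. For Aldoc the log2 fold change of SNI over JA was 0.38 (SE 0.22, limma adjusted p = 0.614), and 0.15 (adjusted p = 0.856) without JA replicate 3, the sample with the lowest astrocyte and the highest Schwann and blood cell marker sums. Without JA replicate 1 the Aldoc value was 0.62. Astrocyte marker sums moved with Aldoc over the JA samples. Neuron marker sums, at 5834, 3036 and 3367 TPM in JA, were high in replicate 1 alone, as were Pfkm, Pfkp and Hk1, and ran from 5731 to 7258 TPM in SNI. All 14 neuron markers (median 0.44) and all 14 tested astrocyte markers (0.61) had a positive log2 fold change in SNI vs JA, beside 76.4% of all loci. So had all Schwann cell (6, median 0.54) and skeletal muscle markers (7, median 0.65). Most values were negative in the other lists, beside 23.6% of all loci: endothelium (6 of 6, median -0.078), oligodendrocyte (9 of 10, -0.08) and microglia markers (7 of 10, -0.067). So were those of blood cell (5 of 6, -0.38) and meninges and fibroblast markers (5 of 7, -0.305) and of all 13 mitochondrial protein genes (-0.21). Median-centred, 1 astrocyte and 1 Schwann cell marker turned negative, and none of these genes was called on either scale. The part of these lists in the enzyme levels was not tested.

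Ldha differed from this order, with its highest value in JA replicate 3 (87.96, 75.74 and 98.53 TPM in JA). Aldoa (1273.28, 939.02 and 1055.2 TPM) and Pgk1 (344.64, 266.02 and 291.18) were lowest in JA replicate 2, and Hk2 (3.53, 3.89 and 2.82) was highest there.

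The comparison of PLM with JA shares its samples with both comparisons above. None of the 10 genes was called, beside 2 loci lower (0.0130%) and 1 higher (0.00652%) of 15349 by limma. Only Eno1 had an unadjusted p-value under 0.05, with a log2 fold change of -0.47 (SE 0.18, limma adjusted p = 0.409), beside 10.5% of loci lower and 1.3% higher at that p-value, and when median-centred 0 of the 10 did, beside 4.72% lower and 5.26% higher. Pfkm and Ldhb were lower in every PLM than in every JA sample (2 of 10, against 15.7% of loci lower and 2.00% higher), with log2 fold changes of -0.23 (SE 0.15) and -0.16 (SE 0.080), or -0.059 and -0.10 without JA replicate 1, and when median-centred 0 of 10 were apart in either direction (6.93% of loci lower and 9.51% higher). None passed the study's thresholds (0.658% of loci lower and 0.280% higher). The Aldoc value was -0.42 (SE 0.23, limma adjusted p = 0.527), -0.65 (adjusted p = 0.155) without JA replicate 3 and -0.18 without JA replicate 1. The median of the 10 genes was -0.18 and of all loci -0.096, but without JA replicate 1 they were -0.047 and -0.052, with 5 of the 10 genes below the all-loci median in place of 8. Aldoa turned from -0.060 to 0.064 when median-centred. All 14 tested astrocyte markers (median -0.91) and all 7 meninges and fibroblast markers (-0.96) had a negative log2 fold change, beside 71.2% of loci. Median-centred, these medians were -0.78 and -0.84. Medians were positive for neuron (0.22), blood cell (0.39) and mitochondrial protein genes (0.12), and ran from -0.39 to -0.024 for the other marker lists. None of these genes was called, and their part in the enzyme levels was not tested.

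Other genes of glucose use were followed as lists written from general knowledge, but with earlier results of these data known. Among 11 tested further glycolytic enzymes, 3 were lower in PLM than in SNI on deposited values and none when median-centred (13.6% and 0.685% of all loci), with medians of -0.28 and -0.034 beside -0.21 and 0.037 for all loci. Tpi1, the triose phosphate isomerase that follows aldolase, was at 593.4, 605.58 and 610.94 TPM in SNI and 419.42, 457.01 and 440.24 in PLM, and its log2 fold change was -0.46 (SE 0.053, limma adjusted p = 0.00857) and -0.21 when median-centred (SE 0.059, adjusted p = 0.164). Pkm, the pyruvate kinase gene and the highest of the list at a mean of 722.8 TPM, changed by -0.36 (SE 0.088, limma adjusted p = 0.0462), and -0.11 median-centred. Pfkl, named after its values were seen, gave -0.35 (limma adjusted p = 0.0442). Eno2, the neuronal enolase, was at 496.01, 373.18 and 485.75 TPM in SNI and 445.13, 436.68 and 414.25 in PLM. The Eno2 groups overlapped (log2 fold change -0.053, limma adjusted p = 0.754), whereas those of Eno1 did not. The tested and untested members of this list together summed to 2786 ± 218 TPM in SNI and 2282 ± 76.9 in PLM (exact permutation p = 0.10).

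The calls among regulators and transporters stand beside the 13.6% of all loci called lower. Of 5 tested flux regulators, 1 was lower in PLM than in SNI: Hif1a, the oxygen-regulated subunit of HIF-1, at 26.01, 28.44 and 22.92 TPM in SNI and 19.13, 18.22 and 20.53 in PLM (log2 fold change -0.40, SE 0.095, limma adjusted p = 0.0437, and -0.15, adjusted p = 0.454, when median-centred). Pfkfb3, which makes the activator of phosphofructokinase, gave -0.36 (limma adjusted p = 0.0546), and Tigar, which lowers that activator, -0.17 (limma adjusted p = 0.278). Of 10 tested glucose and lactate transporters 1 was lower, Slc2a13 (a myo-inositol transporter of the glucose transporter family, named after its values were seen; -0.48, limma adjusted p = 0.0293). Slc2a1, the main glucose transporter of the blood-brain barrier and of astrocytes, was at 128.41, 153.94 and 190.02 TPM in SNI and 106.28, 106.49 and 129.27 in PLM. Its groups overlapped by a narrow margin (-0.45, SE 0.15, limma adjusted p = 0.0910). The monocarboxylate transporter gene Slc16a1 gave -0.39 (limma adjusted p = 0.0606) and Bsg, its chaperone, -0.048 (limma adjusted p = 0.685).

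Routes that branch from glycolysis were read in the same way. Of 14 tested genes for pyruvate entry into mitochondria, 4 were lower in PLM than in SNI on deposited values, where 13.6% of all loci were: Pdk1 and Pdk2, kinases that switch off pyruvate dehydrogenase, Pdhx, a component of that complex, and Pc, pyruvate carboxylase, an enzyme known for its place in astrocytes. They were named after their values were seen, with log2 fold changes of -0.43, -0.59, -0.32 and -0.45. The most abundant of that list, the pyruvate carrier genes Mpc1 and Mpc2 and the dehydrogenase gene Pdhb, gave -0.11, 0.018 and -0.17 with limma adjusted p-values of 0.265, 0.896 and 0.166. Of 6 tested genes of gluconeogenesis and the glycerol phosphate shuttle 2 were lower beside the same 13.6%, G6pc3 (-0.35, limma adjusted p = 0.0292) and Gpd2 (-0.39, limma adjusted p = 0.0472, named after its values were seen), and Gpd1 and Gpd1l gave -0.30 and -0.28 (limma adjusted p = 0.0876 and 0.0920). Median-centred, none of these lists had a call in PLM vs SNI, and their medians lay between -0.12 and -0.034 beside 0.037 for all loci. In SNI vs JA and PLM vs JA none of these lists had a call on either scale.

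**Figure D4:**
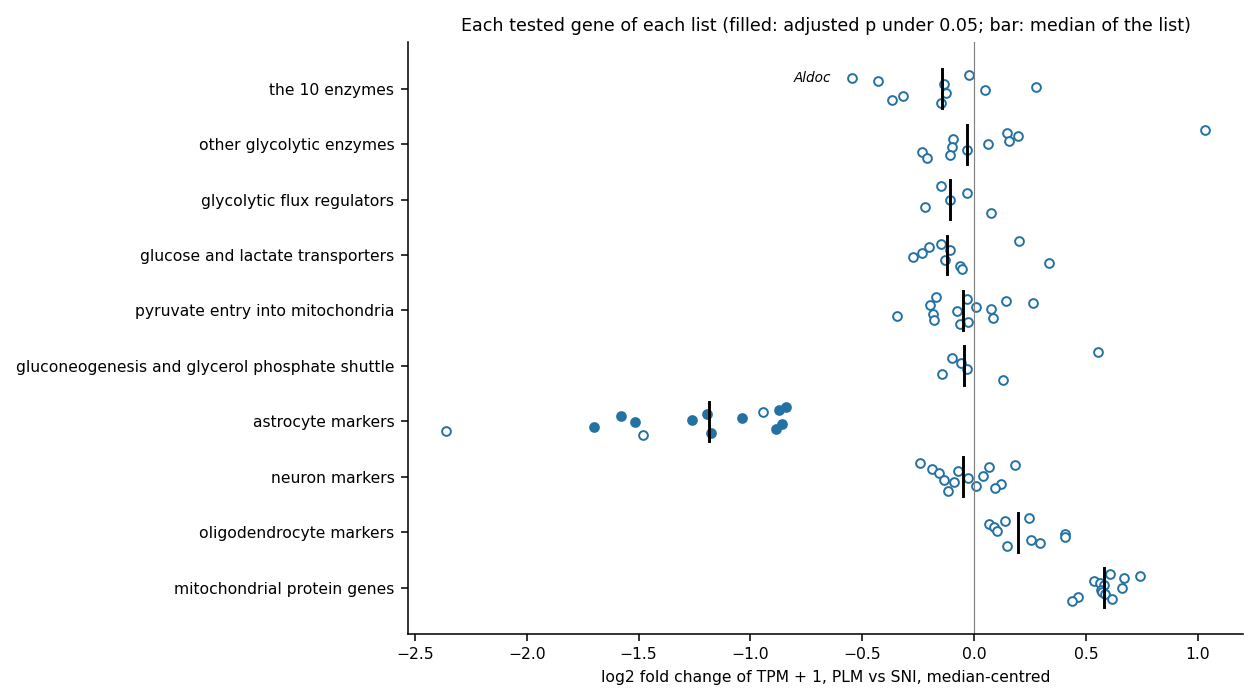
Median-centred log2 fold change of PLM over SNI (horizontal axis) for each tested gene of each list, filled where the limma adjusted p is under 0.05, with a bar at the list's median. Aldoc, at -0.55, is the lowest of the 10 enzymes, the medians of the other lists of glucose use drawn here lie between -0.12 and -0.034, and the astrocyte markers run from -2.36 to -0.84.

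Aldoc was set beside astrocyte marker genes, a list also chosen with earlier results of these data known. Of 14 tested astrocyte markers, 13 were lower in PLM than in SNI on deposited values and 11 when median-centred, with medians of -1.43 and -1.18. Gfap, the intermediate filament of astrocytes, was at 585.59, 617.16 and 560.7 TPM in SNI and 259.01, 248.19 and 216.45 in PLM. Aqp4, the water channel of astrocyte endfeet, was at 333.92, 372.36 and 246.33 TPM in SNI and 149.89, 121.21 and 139.27 in PLM. Aldoc thus differed in the same direction but by less than any of the 14 tested markers, whose median-centred values ran from -2.36 to -0.84. These shares stand beside 13.6% and 0.685% of all loci. Of the other marker lists, meninges and fibroblast markers had 2 of 7 lower on deposited values (Igf2 and Slc6a13, list median -0.58), microglia markers had 1 of 10 (Tmem119, list median -0.001), and the 13 mitochondrial protein genes had 8 higher (median 0.33), against 0.246% of loci higher. None of these 3 lists had a call when median-centred, where their medians were -0.33, 0.25 and 0.58. Neuron (14 tested), oligodendrocyte (10), endothelium (6), Schwann cell (6), blood cell (7) and skeletal muscle markers (7) had no calls on either scale, with median-centred medians of -0.049, 0.20, 0.40, -0.41, 0.81 and -0.74. The part of these marker levels in the lower enzyme levels was not tested.

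Over the 9 samples the median-centred level of Aldoc went with these markers. Pearson's r with Aldoc had a median of 0.93 over the 14 astrocyte markers (0.64 to 0.98), of 0.39 over 7 skeletal muscle markers (0.26 to 0.46) and of 0.30 over 14 neuron markers (-0.41 to 0.52). Over the lists of glucose use reported here it was 0.55 for 5 flux regulators (0.07 to 0.76), 0.27 for 10 transporters (-0.56 to 0.81), 0.14 for 14 pyruvate entry genes (-0.48 to 0.90), 0.14 for 6 gluconeogenesis and shuttle genes (-0.86 to 0.79) and 0.09 for the 11 other glycolytic enzymes (-0.80 to 0.70). Among the lists reported here, medians below 0 came from the 13 mitochondrial protein genes (-0.82, from -0.85 to -0.69), 7 blood cell (-0.74, from -0.85 to 0.01), 10 oligodendrocyte (-0.66, from -0.80 to -0.29), 6 endothelium (-0.60, from -0.81 to -0.37), 10 microglia (-0.52, from -0.72 to 0.70), 6 Schwann cell (-0.39, from -0.57 to -0.35) and 7 meninges and fibroblast markers (-0.21, from -0.38 to 0.46). These are descriptions over 9 samples of 3 groups, which share their libraries and their group differences. Of the enzymes themselves, Pfkm (r = 0.92), Eno1 (0.91) and Pfkp (0.90) were closest to Aldoc, followed by Hk1 (0.77), Ldhb (0.74) and Pgk1 (0.61). Aldoa (0.34), Hk2 (-0.48) and Ldha (-0.49) were not close. Pfkm and Pfkp had an r of 0.99 with each other.

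Among 9802 loci averaging 5 TPM or more, the 6 named genes with the highest r to Aldoc were Cldn10 (0.991), Ckb (0.990), Clu (0.990), Ivd (0.988), Lsamp (0.988) and Itih3 (0.983). Ckb, the brain creatine kinase, was at 1884.37 to 2048.33 TPM in SNI, 1085.14 to 1350.18 in PLM and 1228.03 to 2106.73 in JA, a level near that of Aldoc. Clu, which encodes the secreted chaperone clusterin, was at 732.19 to 841.13 TPM in SNI, 409.81 to 469.35 in PLM and 406.92 to 837.44 in JA. Cldn10, a claudin, was at 27.66 to 29.27 TPM in SNI, 9.89 to 14.98 in PLM and 12.92 to 31.72 in JA. Their group levels follow from their choice by r over the same 9 samples and are given as a description.

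**Figure D5:**
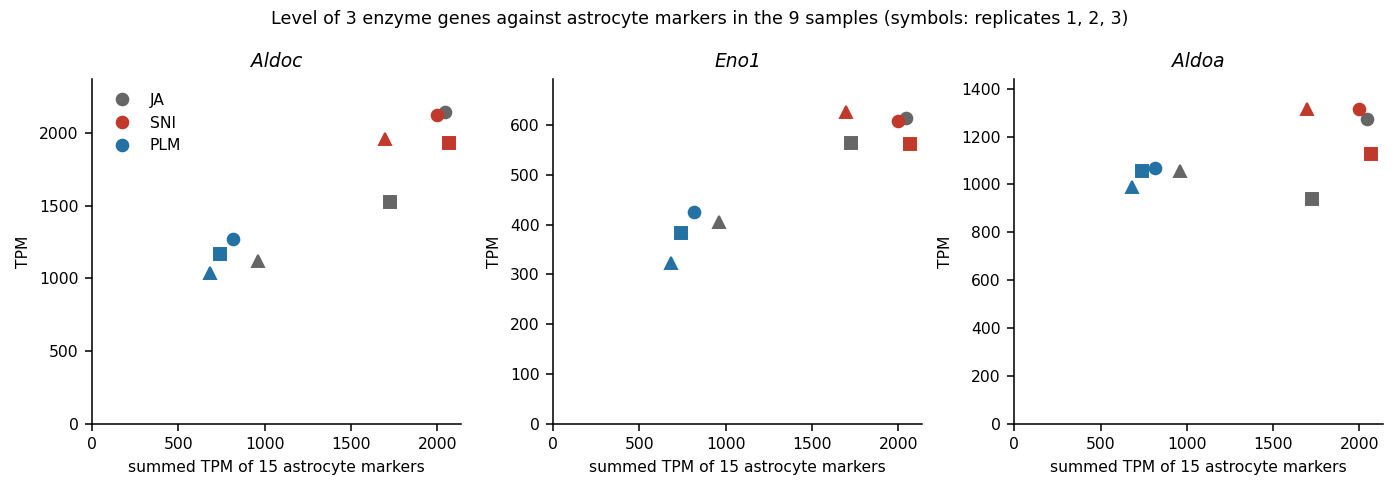
TPM of Aldoc, Eno1 and Aldoa (vertical axes) against the summed TPM of 15 astrocyte markers (horizontal axis) in the 9 samples, coloured by group with symbols for replicates 1, 2 and 3. The PLM samples and JA replicate 3 lie together at marker sums of 684.4 to 962.5 TPM, where Aldoc is between 1034.71 and 1273.43 TPM, and the other samples at 1699 to 2069.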

How the data were processed

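RNA from the L3-L6 spinal cord of 9 rats (3 samples each in JA, SNI and PLM) was analysed. Per the labels and the study's methods, the authors trimmed reads with fastp 0.19.5, mapped them with HISAT2 2.0 and estimated expression with StringTie 1.3.3b, and deposited 1 table of TPM values with 2 decimals. The processing notes name the human build GRCh38.p13 whereas the loci carry rat Ensembl identifiers, and the rat build is not given in the sources used here. TPM holds no depth, so no test for counts was used. Groups were taken from the sample names.

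Each pair of groups was fitted in limma 3.58.1 (R 4.3.3, variance trend, no covariate) to log2(TPM + 1) of the loci averaging 1 TPM or more in the 6 samples. A locus was called where the adjusted p (Benjamini-Hochberg, all loci tested) was under 0.05. Fold changes on this scale understate those of low genes. Median-centring, quantile normalization, TPM without the 13 mitochondrial protein genes, a pseudocount of 0.1, other filters, 1 fit over the 9 samples, a replicate block, the study's thresholds and leaving out each sample were the alternatives. Single values were compared with exact permutation tests in scipy 1.17.1. The calling was tested on simulated data in which loci varied independently and had no shared shift, so that test does not cover the shift seen here.

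The members and lists were chosen with earlier results of these data known. Named were the 10 members, list genes called when median-centred or among the 3 highest in TPM of their list, and the 6 genes most like Aldoc. Other list genes, marked as such, and the marker genes were named after their values were seen. Of the names in the pathway lists, Hkdc1, Gpi1, Gapdh, Pcx and G6pc1 were not matched. The pentose phosphate list is not reported here. Promoters were taken from RefSeq (GRCr8).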

Additional observations from a re-analysis of the deposited data

How the results depend on the processing

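Of the 7 enzyme genes called lower in PLM than in SNI, 0 were called when median-centred (0.685% of loci called lower in that fit) and 3 after quantile normalization (0.853%). With TPM rescaled without mitochondrial protein genes 3 were called (1.66%), in the fit to all 9 samples 1 (2.99%) and at the study's thresholds 0 (1.42%). The count was 7 with a pseudocount of 0.1 (14.1% of loci called lower in that fit), 5 without a filter (5.63%) and 7 with at least 1 TPM in every sample (18.7%). Leaving out 1 sample gave 3 to 7 as deposited (1.71 to 9.46% of loci called lower) and 0 to 0 when median-centred (0 to 0.463%). Deviations from the group means had an r of -0.051 to 0.123 over the 9 same-numbered pairs, and of -0.192 to 0.137 over differently numbered pairs. An r over all loci cannot tell whether same-numbered samples shared a batch that touched some genes. With a replicate block 1 gene (Aldoc) was called (0.976% of loci), and 0 with the block on median-centred values (0% of loci).

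Over all loci in PLM vs SNI, 2110 were lower and 38 higher. These counts were 106 and 20 when median-centred, 132 and 23 after quantile normalization, 267 and 16 without mitochondrial protein genes, 1237 and 21 without a filter, 463 and 8 in the fit to all 9 samples, 151 and 1 with a replicate block, and 0 and 0 with the block on median-centred values; 220 were lower at the study's thresholds. Leaving out 1 sample gave 264 to 1456 lower and 7 to 38 higher, and 0 to 72 and 0 to 13 when median-centred. In SNI vs JA, where limma called 0 (154 lower and 950 higher at an unadjusted p-value under 0.05), the study's thresholds gave 30 lower and 77 higher, no filter gave 1 higher, and leaving out 1 sample gave 0 to 3 lower and 0 to 6 higher, and 0 to 3 and 0 to 5 when median-centred. In PLM vs JA the 2 lower loci became 1 without a filter, in the fit to all 9 samples and with the replicate block, 0 with the block on median-centred values and 101 at the study's thresholds. The 1 higher locus became 0 when median-centred, after quantile normalization, without a filter, in the fit to all 9 samples and with the block on either scale, 2 with a pseudocount of 0.1 and 43 at the study's thresholds. Leaving out 1 sample gave 1 to 21 lower and 1 to 4 higher, and 0 to 10 and 0 to 2 when median-centred. Median-centred, the study's thresholds gave 102 lower and 64 higher in PLM vs SNI (220 and 35 as deposited), 45 and 38 in SNI vs JA and 47 and 54 in PLM vs JA, so the balance of directions turned in the last 2. The causes were not tested.

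Signs turned only in values that were not called. Ldha in PLM vs SNI was 0.048 when median-centred, with and without the block, and 0.004 after quantile normalization, and Aldoa in PLM vs JA was 0.064 when median-centred, with and without the block. Leaving out 1 sample moved the following log2 values across 0. As deposited, Hk2 ran from -0.019 to 0.062 in PLM vs SNI, from -0.102 to 0.076 in SNI vs JA and from -0.071 to 0.107 in PLM vs JA, Ldha in SNI vs JA from -0.139 to 0.049, and in PLM vs JA Pfkp from -0.317 to 0.028 and Aldoa from -0.161 to 0.059. When median-centred, Aldoa ran from -0.092 to 0.041 in PLM vs SNI, and in SNI vs JA Eno1 from -0.059 to 0.159 and Aldoa from -0.011 to 0.162. In PLM vs JA, median-centred, the ranges were -0.070 to 0.006 for Ldhb, -0.208 to 0.015 for Ldha, -0.167 to 0.108 for Pfkp, -0.081 to 0.056 for Hk1, -0.031 to 0.139 for Aldoa, -0.180 to 0.021 for Pfkm and -0.091 to 0.102 for Pgk1. Log2 Aldoc/Aldoa in SNI vs JA ran from -0.0442 to 0.289 and the Aldoc share of the summed TPM (2.4 percentage points with all samples) from -0.165 to 4.51, both lowest without JA replicate 3. In PLM vs JA log2 Ldhb/Ldha (0.081 with all samples) ran from -0.0614 to 0.174, and the summed TPM of the other glycolytic enzymes differed by -228 to 142 (-73.6 with all samples). Read depth is unknown and limits every value, most of all Hk2 at a mean of 3.428 TPM.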
